A study of Mus musculus with 10 samples.

Results

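The 33 genes described here are immediate early genes and genes of the stress response to tissue dissociation, measured in microglia sorted from the mouse brain. They were taken by symbol and not by a measured value, but the list was drawn up with earlier results of these data known. All 33 were among the 53697 genes of the deposited files. Of them, 31 had enough reads to be tested, among 13916 tested genes in all. The series holds 10 RNA-seq libraries, of which 5 come from wild type (WT) and 5 from Bhlhe40-/-Bhlhe41-/- (double knockout, DKO) mice, to ask how loss of these related transcriptional repressors changes the transcriptome of microglia. All mice were female. They were put under ketamine and xylazine anesthesia and perfused with cold PBS before the brains were taken, and no other treatment is stated. Mice of both genotypes were kept on the C57BL/6 background. The WT mice are given as C57BL/6J or Rosa26Stop-YFP in the methods, but are called littermates of the DKO mice in the results of the study. The DKO mice lack both genes in the whole body and not in microglia alone. Ages of at least 2 and 6 months are stated for the mice but not assigned to libraries. Brains without olfactory bulb and cerebellum were digested with warm collagenase, and living cells with CD45.2 and CD11b but without Ly6C, Ly6G, MHCII and CD38 on their surface were taken by a double sort. An inhibitor of transcription during the digestion is not mentioned in the methods. Here WT 1 to WT 5 and DKO 1 to DKO 5 stand for the libraries, numbered as in the labels. The labels call them biological replicates without saying whether mice were pooled, and p-values refer to the spread among libraries.

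Immediate early genes are switched on within minutes of a stimulus, without new protein synthesis, by factors that already sit in the cell, such as the serum response factor and CREB. Many encode transcription factors, among them the subunits of AP-1 and the EGR, KLF and NR4A factors, and others encode proteins that end the response by removing phosphate from kinases, degrading mRNA or holding NF-kB in the cytoplasm. Heat shock chaperones refold proteins after stress. Microglia are known to switch on both groups while brain tissue is digested with warm enzymes, so in sorted microglia these genes can report on the preparation as well as on the animal. BHLHE40 and BHLHE41 are repressors that bind the E-box CACGTG, and BHLHE40 is itself induced by many stimuli.

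The libraries held 22483044 to 26109107 estimated counts. Levels are given in CPM, which is the count divided by the library total (scaled by TMM) and brought to one common total for every library. WT 1 and WT 5 stood apart from the other WT libraries for several of the genes below and held 1.75% and 1.54% of counts in mitochondrial genes, as DKO 3 did with 1.58%, against 0.986% to 1.16% elsewhere. WT 3 lay near the DKO libraries for some genes below and also for Gm23935, a short noncoding gene that took 20.3% of its TPM, against 2.85% to 6.6% in the other WT and 23.2% to 26.6% in the DKO libraries. Microglial markers were high, with a summed level of 69656 to 77221 CPM in WT and 63822 to 77948 CPM in DKO libraries, although P2ry12 fell (9083 to 12265 CPM in WT, 6406 to 8798 CPM in DKO libraries, edgeR adjusted p = 0.0301). Among the markers of other cells, Pf4 rose (0 to 0.376 and 2.1 to 6.21 CPM), and Pecam1 and Slc1a3 (238 to 392 and 152 to 206 CPM) fell. Cd163 and Lyve1 of border-associated macrophages were at 0 in all libraries, Gfap and Aqp4 of astrocytes stayed at 0.765 CPM or less, and the 5 neutrophil markers together at 0.223 CPM or less. The part of these shifts in the values below was not tested. Bhlhe40 was scarce, with 4 to 28 counts in WT libraries and 1 to 8 in DKO libraries, and Bhlhe41 was not lower in DKO microglia, at 754 to 1305 and 997 to 1356 counts. Its log2 fold change (DKO over WT) was 0.5 (edgeR adjusted p = 0.0707), and it passed the threshold in 4 of 16 other settings. Divided by effective length, Bhlhe41 lay at 6.23 ± 1.25 CPM per kb in WT and 25.7 ± 5.88 in DKO libraries (SD, n = 5 each), so its estimated length was shorter in DKO libraries. Whole-gene counts can include parts of a gene that a deletion leaves in place.

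Rhob rose in DKO microglia, Btg2 and Hspa8 fell, and the other 28 tested genes did not pass the test. In sorted bulk samples, less RNA per cell and fewer cells that express a gene cannot be told apart. In edgeR's quasi-likelihood test, with p adjusted by Benjamini and Hochberg over all genes at a threshold of 0.05, 3 of 31 genes were thus called, or 9.68%, against 6.19% of all genes. In the upward direction 1 gene was called, against 4.34% of all genes, and in the downward direction 2, against 1.85%. With counts this small, the shares do not set these genes apart from the rest. The median log2 fold change (DKO over WT) of the 31 was -0.05, against -0.01 over all genes, with 14 positive and 17 negative values. The libraries of both genotypes did not overlap for 2 of the 31 genes, against 7.62% of all genes. For 19 of the 31, the 95% confidence interval of the fold change lay within 2-fold in either direction, so larger changes are outside their intervals, whereas the intervals of the other 12 reach beyond 2-fold. Egr3, with 5 to 22 counts per library, and Nr4a2, with 0 to 9, were too low to be tested.

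**Figure D1:**
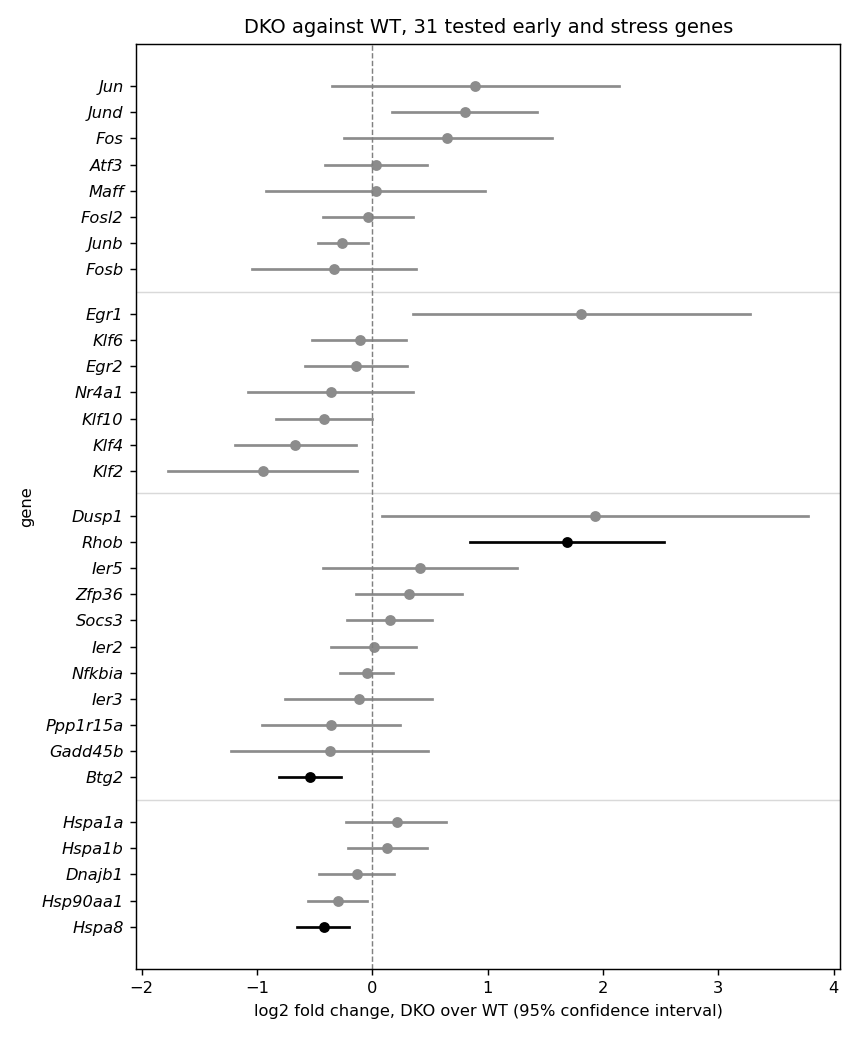
Log2 fold change in CPM, DKO over WT (x axis), of the 31 tested genes (y axis), in blocks from top to bottom of AP-1 subunits, EGR, KLF and NR4A factors, feedback regulators and other early genes, and heat shock chaperones. Points are fitted values, lines are 95% confidence intervals, and black marks genes past the threshold. Rhob (1.69), Btg2 (-0.54) and Hspa8 (-0.42) are black, and the intervals of Egr1 and Dusp1 are the widest.

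At the level of RNA per length, the WT microglia held mostly a few of these genes. Divided by effective length, Hspa8, the constitutive chaperone HSC70, was highest with 887 ± 86.4 CPM per kb in WT libraries (SD, n = 5). Junb followed with 275 ± 35.6, Nfkbia with 266 ± 21.8, Hsp90aa1 with 235 ± 47.2 and Btg2 with 233 ± 47.2 CPM per kb, and these 4 neighbours did not differ beyond their spread. Klf6 (162 ± 61.7 CPM per kb) and Jun (123 ± 93.5 CPM per kb) came next. The inducible chaperone genes Hspa1a and Hspa1b held 93.8 ± 24.7 and 78.1 ± 13.5 CPM per kb, near Klf10, Zfp36 and Fos at 83.9 ± 34.8, 78.4 ± 24.7 and 78.2 ± 45.4 CPM per kb. The ranks of Hsp90aa1 and Klf10 rest on short estimated lengths, of 926 to 1045 and 547 to 889 bases over the libraries. Before division by length, Hsp90aa1 averaged 159 CPM and Zfp36 158 CPM in WT libraries. At the low end, Klf4 (0.771), Maff (0.575), Fosl2 (0.547), Egr3 (0.139) and Nr4a2 (0.03 CPM per kb) were all under 1 CPM per kb in WT libraries.

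**Figure D2:**
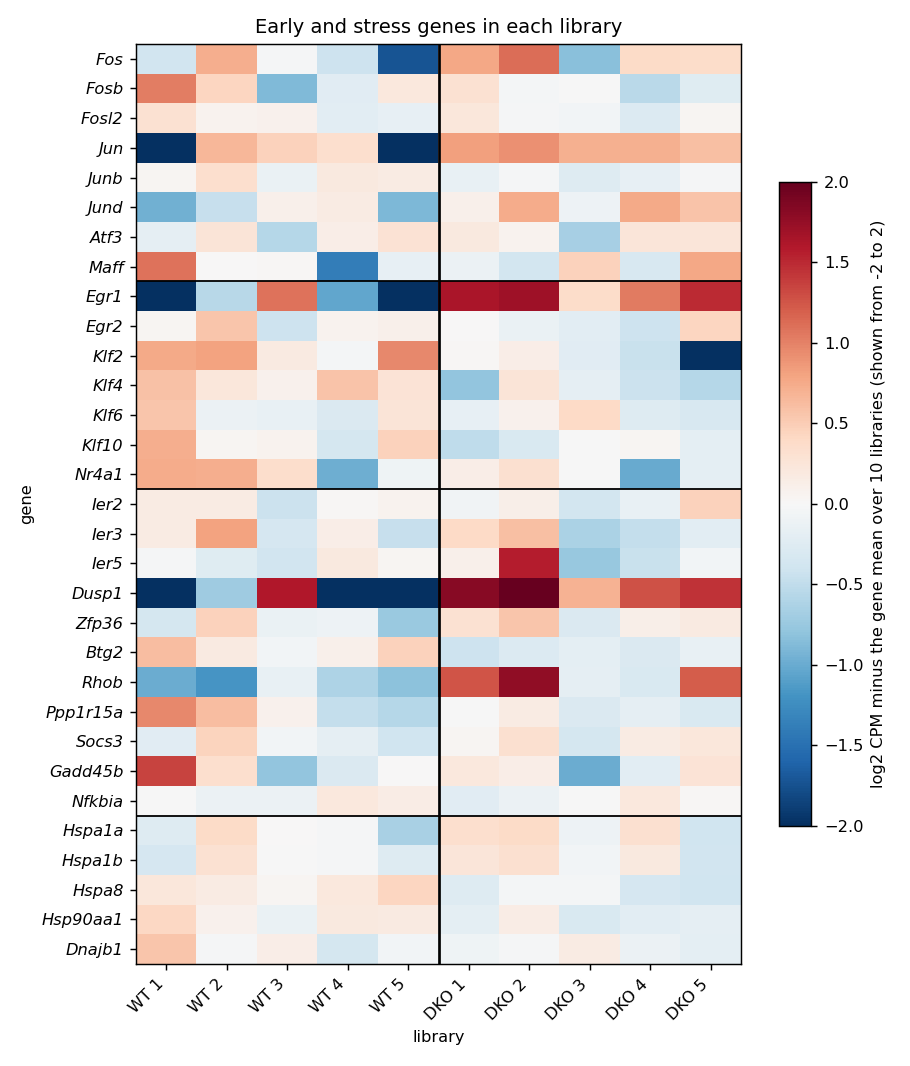
Heat map of the 31 tested genes (y axis, in the order of the 4 role groups, parted by lines) in the 10 libraries (x axis). Colour gives log2 CPM minus the gene's mean over all libraries, from blue for lower to red for higher, shown between -2 and 2. Jun, Egr1 and Dusp1 are dark blue in WT 1 and WT 5, and Egr1 and Dusp1 are red in WT 3 and the DKO libraries.

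AP-1 is a pair of proteins of the FOS, JUN, ATF and MAF families that binds DNA together. None of its 8 subunits here passed the test with edgeR, with DESeq2, with limma voom or with limma on log2 TPM. An unadjusted p under 0.05 was seen for 2 of them, Jund and Junb, and for 3244 of all 13916 tested genes. Jund, a JUN protein that many resting cells hold, was read at 1.01, 1.44, 2.13, 2.22 and 1.05 CPM in WT 1 to WT 5 and at 2.14, 3.35, 1.84, 3.38 and 2.98 CPM in DKO 1 to DKO 5. It averaged 1.57 ± 0.579 CPM over WT and 2.74 ± 0.708 CPM over DKO libraries (SD, n = 5 each), with a log2 fold change of 0.8 (SE 0.29, edgeR adjusted p = 0.122). DKO 1 and DKO 3 lay within the WT values, and the direction turned, to -0.3, with a correction for GC content, which is 67.1% in Jund transcripts. Junb, a JUN protein and the subunit with the highest level per length, was read at 214, 262, 190, 238 and 234 CPM in WT 1 to WT 5 and at 187, 203, 174, 185 and 204 CPM in DKO 1 to DKO 5. The means were 228 ± 27.1 and 191 ± 12.9 CPM (SD, n = 5 each), a log2 fold change of -0.26 (SE 0.1, edgeR adjusted p = 0.138). WT 3 lay inside the DKO values, while the other 4 WT libraries lay above all DKO libraries. With the GC correction Junb passed the threshold, at -0.91 (edgeR adjusted p = 0.0168), while the median of all genes moved to -0.147 under that correction. Prdx2 lies on the opposite strand at Junb, with 102 to 127 CPM in WT and 89 to 117 CPM in DKO libraries, and the library kit does not mark strand.

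Fos and Jun, the classical pair, were chosen for description after their values were seen. Jun had 48.6 CPM in WT 1 and 46.2 CPM in WT 5, but 462, 403 and 368 CPM in WT 2, WT 3 and WT 4. In DKO 1 to DKO 5 it was read at 516, 552, 477, 476 and 441 CPM. WT values thus fell apart by up to 10-fold, and DKO values by 1.25-fold. The fitted log2 fold change of 0.89 (SE 0.57, edgeR adjusted p = 0.37) was 0.26 without WT 1 and WT 5 (edgeR adjusted p = 0.243). Where Jun overlaps its antisense gene Junos, reads of both cannot be told apart, and Junos lay at 0.316 to 1.55 CPM. Fos was read at 84.2, 182, 108, 82.3 and 33.2 CPM in WT 1 to WT 5 and at 187, 237, 61.6, 143 and 141 CPM in DKO 1 to DKO 5. The genotypes overlapped widely for Fos, with a log2 fold change of 0.65 (SE 0.41, edgeR adjusted p = 0.367). WT 5 was the lowest WT library for both Fos and Jun, whereas WT 1 was low for Jun alone. The other subunits, Fosb, Fosl2, Maff and the stress-induced factor Atf3, had log2 fold changes of -0.33 to 0.03.

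The EGR and KLF zinc finger factors and the NR4A nuclear receptors carry the early response to its targets. None of the 7 tested genes of this group passed the test with edgeR or DESeq2, while limma voom and limma on log2 TPM each called Egr1. Of the 7, 3 had an unadjusted p under 0.05, against 3244 of all 13916 genes. Egr1, which is switched on by the serum response factor, was read at 5.37, 19.4, 60.1, 13.9 and 2.82 CPM in WT 1 to WT 5. In DKO 1 to DKO 5 it was read at 88.5, 91.9, 36.5, 58.3 and 80.1 CPM. WT 3 lay among the DKO libraries, and the other 4 WT libraries lay below all of them. The means were 20.3 ± 23.2 CPM for WT against 71 ± 23.3 CPM for DKO (SD, n = 5 each), and the log2 fold change was 1.81 (SE 0.67, 95% confidence interval 0.35 to 3.27, edgeR adjusted p = 0.132). The value rested on single WT libraries. Without WT 3 it was 2.78 and passed the threshold (edgeR adjusted p = 0.00507), and without WT 1 and WT 5 it was 1.19 (edgeR adjusted p = 0.223).

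Klf4, a factor of resting endothelium and of monocytes, had the smallest p of the group. It was read at 1.91, 1.49, 1.34, 1.89 and 1.54 CPM in WT 1 to WT 5 and at 0.726, 1.52, 1.12, 0.938 and 0.85 CPM in DKO 1 to DKO 5, and DKO 2 overlapped the WT libraries. The log2 fold change was -0.67 (SE 0.24, edgeR adjusted p = 0.124). Its relative Klf2, which shares targets with it in endothelium, lay at 0.987 to 1.99 CPM in WT and 0.213 to 1.12 CPM in DKO libraries (log2 fold change -0.95, SE 0.37, edgeR adjusted p = 0.154). The 6 endothelial markers summed to 41.4 to 63.5 CPM in WT and 11.2 to 18.6 CPM in DKO libraries, a difference carried by Pecam1 (29.7 to 58 and 3.8 to 6.52 CPM). The other tested markers, Kdr (4.69 to 10.8 and 4.97 to 12.6 CPM, log2 fold change 0.21) and Flt1 (log2 fold change 0.08), did not pass the test and had positive values. Cldn5, which defines brain endothelium, lay at 0 to 0.171 CPM in all libraries, and the part of these markers in the Klf2 and Klf4 values was not tested. With the GC correction Klf4 passed the threshold at -1.2 (edgeR adjusted p = 0.0352). Klf6, an early KLF factor and the gene of this group with the highest level per length, was read at 380, 237, 233, 210 and 308 CPM in WT 1 to WT 5 and at 231, 272, 341, 215 and 205 CPM in DKO 1 to DKO 5. WT 1 and DKO 3 were the high libraries of each genotype, and the log2 fold change was -0.11 (SE 0.19, edgeR adjusted p = 0.744). Egr2, Klf10 and Nr4a1 had log2 fold changes of -0.14, -0.42 and -0.36, none past the threshold.

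**Figure D3:**
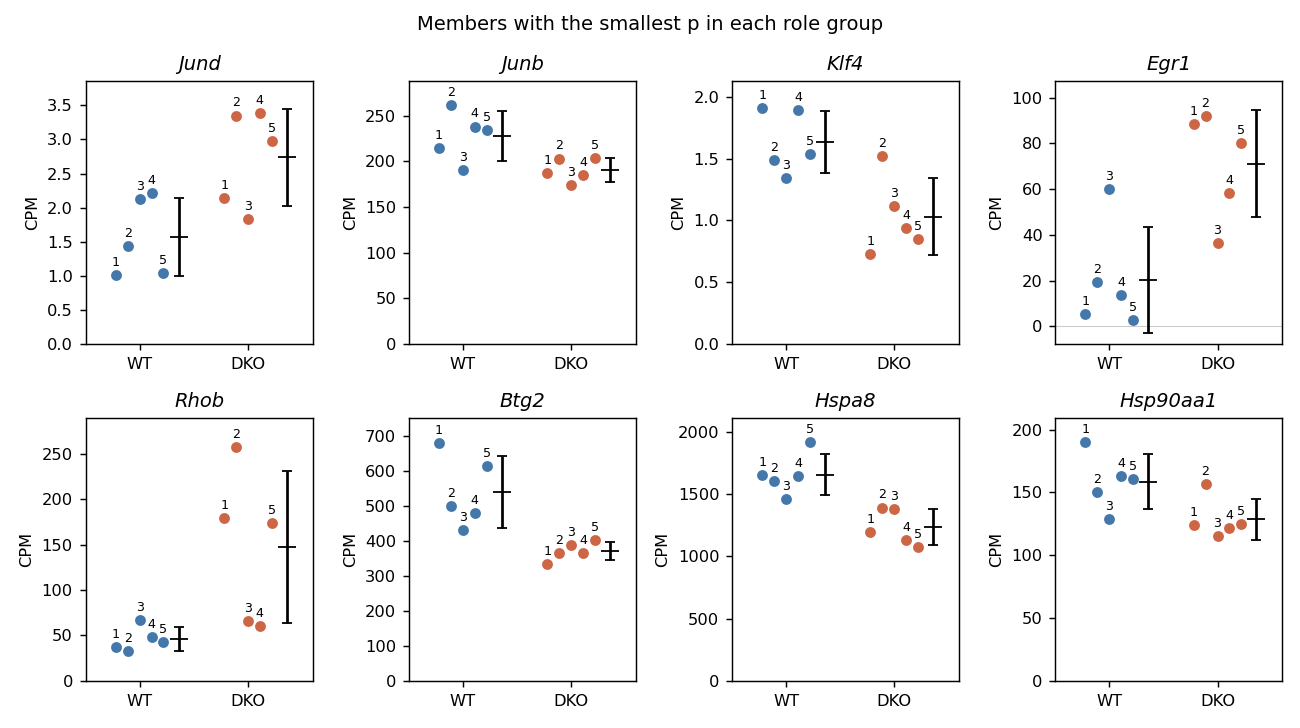
CPM (y axis, from 0 or below where an error bar ends below 0) in each WT and DKO library (x axis, points numbered by replicate) for the members with the smallest p in each role group. Bars to the right of the points are mean ± SD (n = 5). Btg2 and Hspa8 do not overlap between genotypes, while 2 DKO libraries lie at the upper edge of the WT values for Rhob and WT 3 lies among the DKO values for Egr1.

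The feedback regulators and other early genes held 2 of the 3 changed genes. Rhob encodes a small GTPase of endosomes and the actin skeleton, and its gene is switched on early by growth factors and DNA damage. It rose in DKO microglia. It was read at 37.6, 33.1, 67.1, 48.6 and 42.4 CPM in WT 1 to WT 5 and at 179, 257, 66.2, 60.3 and 174 CPM in DKO 1 to DKO 5. DKO 1, DKO 2 and DKO 5 lay far above every WT library, while DKO 3 and DKO 4 lay below WT 3. The means were 45.8 ± 13.3 CPM for WT against 147 ± 83.4 CPM for DKO (SD, n = 5 each), with a log2 fold change of 1.69 (SE 0.38, 95% confidence interval 0.85 to 2.53, edgeR adjusted p = 0.0266). Rhob is a gene of 1 exon at chr12:8497661-8500009 (GRCm38, GENCODE M21, minus strand), and no other annotated gene overlaps it. Its call was lost, at edgeR adjusted p of 0.0585 to 0.0686, when WT 1, WT 2, WT 4, WT 5, DKO 1, DKO 2 or DKO 5 was left out, and without WT 1 and WT 5 together the log2 fold change was 1.57 (edgeR adjusted p = 0.124).

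Btg2, an antiproliferative protein that recruits the deadenylase to mRNA, fell in DKO microglia. Its gene has 2 exons at chr1:134075170-134079120 (GRCm38, minus strand). It was read at 678, 500, 430, 478 and 613 CPM in WT 1 to WT 5 and at 334, 365, 388, 365 and 402 CPM in DKO 1 to DKO 5. Every WT library lay above every DKO library, and WT 1 and WT 5 were the highest. The means were 540 ± 103 and 371 ± 25.7 CPM (SD, n = 5 each), and the log2 fold change was -0.54 (SE 0.12, 95% confidence interval -0.81 to -0.27, edgeR adjusted p = 0.0272). The call was lost, at edgeR adjusted p of 0.0511 to 0.0777, when WT 1, WT 2, WT 5, DKO 1 or DKO 2 was left out, and without WT 1 and WT 5 together the log2 fold change was -0.34 (edgeR adjusted p = 0.0841).

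Dusp1, which removes phosphate from MAP kinases and so ends the signal that switches on early genes, had the largest fold change of all 31 genes. It was chosen for description after its values were seen. It was read at 3.78, 19.1, 94.8, 7.11 and 3.08 CPM in WT 1 to WT 5 and at 110, 164, 50.8, 75.8 and 85.1 CPM in DKO 1 to DKO 5. The order of the WT libraries was that of Egr1, with WT 3 highest and among the DKO values and WT 5 lowest. The log2 fold change was 1.93 (SE 0.84, 95% confidence interval 0.08 to 3.78, edgeR adjusted p = 0.199), 3.56 without WT 3 (edgeR adjusted p = 0.00194) and 1.27 without WT 1 and WT 5 (edgeR adjusted p = 0.395). In GENCODE M21, the annotated interval of Dusp1 (chr17:26505590-26562128) overlaps those of Ergic1 and Gm8225 on the opposite strand and of AC122252.4 and AC122252.1 on the same strand. The deposited values carry an earlier version of the Dusp1 gene record, with estimated lengths of 1660 to 1928 bases. The interval of that version was not examined. Reads on shared bases cannot be told apart, but whether exons are shared was not examined. The part of such reads in the Dusp1 values was not tested. Ergic1 was read at 52.9, 105, 147, 78.8 and 51.8 CPM in WT 1 to WT 5 and at 127 to 166 CPM in DKO libraries, so WT 3 was the highest WT library for it as well.

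The windows before the start sites of Rhob and Btg2, both changed, and of Dusp1, the gene with the largest fold change, are given to show which motifs of early gene regulators they hold. The bases are those of RefSeq (GRCm38.p6), written from 5′ to 3′ on the strand of the gene and ending at the RefSeq start site, except in Dusp1, where bases annotated as exon were left out. Capitals mark the E-box CACGTG and the cyclic AMP response element TGACGTCA.
Rhob, chr12:8500010-8500259, minus strand: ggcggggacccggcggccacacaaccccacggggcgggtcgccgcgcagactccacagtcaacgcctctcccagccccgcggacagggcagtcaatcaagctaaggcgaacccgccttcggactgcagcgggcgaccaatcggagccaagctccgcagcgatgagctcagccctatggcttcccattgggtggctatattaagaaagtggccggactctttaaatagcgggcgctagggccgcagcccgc
Btg2, chr1:134079156-134079405, minus strand: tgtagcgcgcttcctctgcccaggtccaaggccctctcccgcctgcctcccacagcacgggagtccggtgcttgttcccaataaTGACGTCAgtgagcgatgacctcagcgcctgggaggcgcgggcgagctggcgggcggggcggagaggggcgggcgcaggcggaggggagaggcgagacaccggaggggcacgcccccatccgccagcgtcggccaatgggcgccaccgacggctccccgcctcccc
Dusp1, chr17:26508520-26508722, minus strand: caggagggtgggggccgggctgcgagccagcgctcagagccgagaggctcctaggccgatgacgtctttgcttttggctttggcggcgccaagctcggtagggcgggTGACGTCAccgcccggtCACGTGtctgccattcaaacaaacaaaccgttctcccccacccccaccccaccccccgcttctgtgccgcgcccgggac
In Rhob neither motif was found, nor were the AP-1 site TGANTCA, the heat shock element GAANNTTC or the CArG box of the serum response factor. In Btg2 a cyclic AMP response element ended 159 bases before the start site, and in Dusp1 an E-box and a cyclic AMP response element ended 121 and 136 bases before it. Windows of 250 bases, searched on both strands, were held for 27 of the 33 genes, with 34 start sites in all. The 6 genes without a window include Hspa8, which also changed, and Egr1. For 28 of the 34 windows, the bases after the start site were found in a GENCODE M21 transcript of the gene. Some windows, such as that of Fosl2 and 1 of Dnajb1, lie inside the annotated gene. The E-box was found in 17.6% of these 34 windows and in 6.02% of 32851 windows of all genes. The genes with it were Dusp1, Egr2, Gadd45b, Klf4, Klf6 and Maff, none of which passed the main test of DKO against WT. In other settings Dusp1 passed with limma voom, with log2 TPM and without WT 3, and Klf4 with the GC correction. Rhob and Btg2 were the only changed genes with a window, so these windows cannot relate a motif to a change. The cyclic AMP response element was found in 11.8% of the windows and in 1.55% of all, the CArG box in 14.7% and 1.47%, the heat shock element in 11.8% and 6.69%, and the AP-1 site in 0 of 34 windows and 6.75% of all. Egr2 has several start sites, some with windows that overlap, and the 5 windows with a CArG box were those of Egr2 and Zfp36. None of the motifs contains another. A motif is a match of letters and not a measured binding site.

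The other feedback regulators differed little between genotypes against their spread. Nfkbia, the NF-kB inhibitor and the gene of this group with the highest level per length, was read at 177, 165, 164, 207 and 199 CPM in WT 1 to WT 5 and at 152, 164, 177, 206 and 182 CPM in DKO 1 to DKO 5. Its log2 fold change was -0.05 (SE 0.1, 95% confidence interval -0.28 to 0.18, edgeR adjusted p = 0.812). Zfp36, which binds and destabilises cytokine mRNA, lay at 102 to 236 CPM in WT and 139 to 250 CPM in DKO libraries (log2 fold change 0.32, SE 0.21, edgeR adjusted p = 0.39). Socs3, an inhibitor of cytokine signalling, had a log2 fold change of 0.15 (SE 0.17, edgeR adjusted p = 0.626), which turned to -0.72 with the GC correction (edgeR adjusted p = 0.0497). Ier5 was read at 44.4 CPM in DKO 2 and at 8.84 to 17.1 CPM in the other 9 libraries. Ppp1r15a, which restores translation after stress, lay at 37.4 and 29.3 CPM in WT 1 and WT 2, at 12.8 to 20.4 CPM in the other WT libraries and at 15.6 to 21.4 CPM in DKO libraries. Ier2, Ier3 and Gadd45b had log2 fold changes of 0.01, -0.12 and -0.37.

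**Figure D4:**
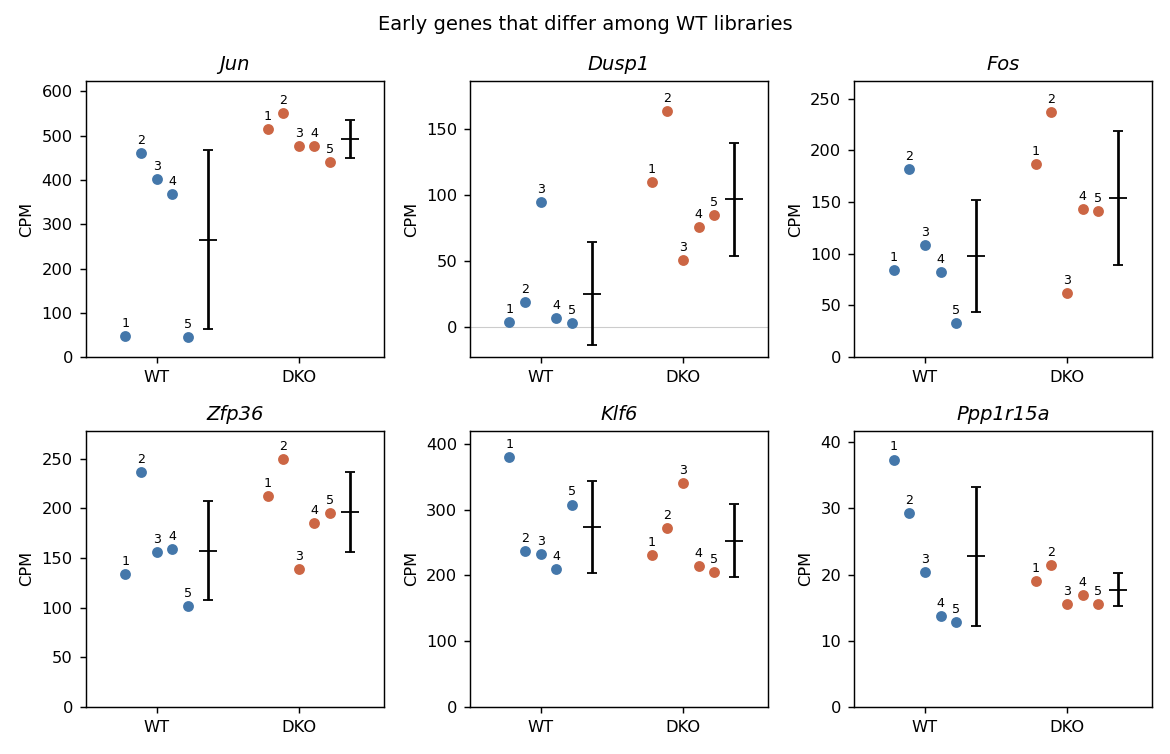
CPM (y axis) in each WT and DKO library (x axis, points numbered by replicate) for 6 early genes chosen after their values were seen, with mean ± SD (n = 5) to the right. WT 1 and WT 5 lie far below the other libraries for Jun, WT 3 lies among the DKO libraries for Dusp1, and WT 1 is the highest WT library for Klf6 and Ppp1r15a.

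Of the 5 heat shock chaperones, the constitutive gene Hspa8 fell and the inducible genes did not pass the test. Hspa8, at chr9:40800984-40810087 (GRCm38, plus strand), was read at 1655, 1602, 1462, 1645 and 1913 CPM in WT 1 to WT 5 and at 1192, 1391, 1381, 1129 and 1074 CPM in DKO 1 to DKO 5. Every WT library lay above every DKO library, WT 3 and DKO 2 being nearest to each other. The means were 1655 ± 164 and 1233 ± 145 CPM (SD, n = 5 each), and the log2 fold change was -0.42 (SE 0.1, 95% confidence interval -0.65 to -0.2, edgeR adjusted p = 0.0333). The call was lost, at edgeR adjusted p of 0.0652 to 0.0881, when WT 1, WT 2, WT 4, WT 5, DKO 1, DKO 4 or DKO 5 was left out, and without WT 1 and WT 5 together the log2 fold change was -0.35 (edgeR adjusted p = 0.129). Hsp90aa1, the inducible HSP90, was read at 190, 150, 129, 163 and 161 CPM in WT 1 to WT 5 and at 124, 157, 115, 122 and 125 CPM in DKO 1 to DKO 5. WT 3 and DKO 2 lay within the values of the other genotype, and the log2 fold change was -0.3 (SE 0.12, edgeR adjusted p = 0.149).

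Hspa1a and Hspa1b encode the inducible HSP70 and are the chaperone genes most used as a sign of heat and dissociation stress. Hspa1a lay at 113 to 232 CPM in WT and 135 to 232 CPM in DKO libraries (log2 fold change 0.21, SE 0.2, edgeR adjusted p = 0.56), and Hspa1b at 125 to 196 and 121 to 197 CPM (log2 fold change 0.13, SE 0.15, edgeR adjusted p = 0.646). Both genes lie next to each other on chromosome 17, have 1 exon each and share 58.8% of the 50-base stretches of Hspa1a, so reads can be split between them and each value alone is uncertain. With both summed, the other calls did not change. Dnajb1, the cochaperone of HSP70, had a log2 fold change of -0.13 (SE 0.15, edgeR adjusted p = 0.632). The windows before both Hspa1 start sites are given to show how alike they are, with 247 of 250 bases the same at the same distance (98.8%). Capitals mark the heat shock element, which ends 97 bases before each start site.
Hspa1a, chr17:34972157-34972406, minus strand: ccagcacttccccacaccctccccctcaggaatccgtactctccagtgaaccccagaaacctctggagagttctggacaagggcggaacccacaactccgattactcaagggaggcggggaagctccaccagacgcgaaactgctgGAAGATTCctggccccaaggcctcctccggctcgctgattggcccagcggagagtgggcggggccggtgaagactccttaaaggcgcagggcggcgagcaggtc
Hspa1b, chr17:34959239-34959488, minus strand: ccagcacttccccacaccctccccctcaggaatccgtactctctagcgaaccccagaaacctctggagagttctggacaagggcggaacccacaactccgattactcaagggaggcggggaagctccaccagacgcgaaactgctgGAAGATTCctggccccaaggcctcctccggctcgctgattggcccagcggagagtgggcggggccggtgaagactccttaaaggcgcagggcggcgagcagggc

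Several of the early genes varied widely between libraries of one genotype. The biological coefficient of variation fitted by edgeR was 85.1% for Dusp1, 69.3% for Egr1, 60.4% for Jun and 45.4% for Fos, against a median of 22.5% over all genes. It was higher than the median of genes with a like level (within 0.5 log2 CPM) for 26 of the 31 genes, and above their 90th percentile for 6, which is a description with no test. It lay below that median for Fosl2 (18.3%), Klf4 (22.3%), Hspa8 (14.7%), Junb (14.5%) and Nfkbia (15.2%). The SD of log2 CPM was larger in WT than in DKO libraries for 21 of the 31 genes (67.7%), against 63.7% of all genes. For Jun it was 1.71 in WT and 0.12 in DKO libraries, for Dusp1 2.02 and 0.63, and for Egr1 1.7 and 0.56. The opposite was seen for Rhob (0.39 and 0.94), Klf2 (0.44 and 0.93) and Ier5 (0.23 and 0.9). WT 1 and WT 5 were the lowest 2 of all 10 libraries for Jun, Jund, Egr1, Dusp1 and Zfp36, or 16.1% of the genes, against 15.3% of all genes, and the highest 2 for Klf10, Btg2 and Hspa8, or 9.68% against 10.5%. Both shares lay close to those of all genes.

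**Figure D5:**
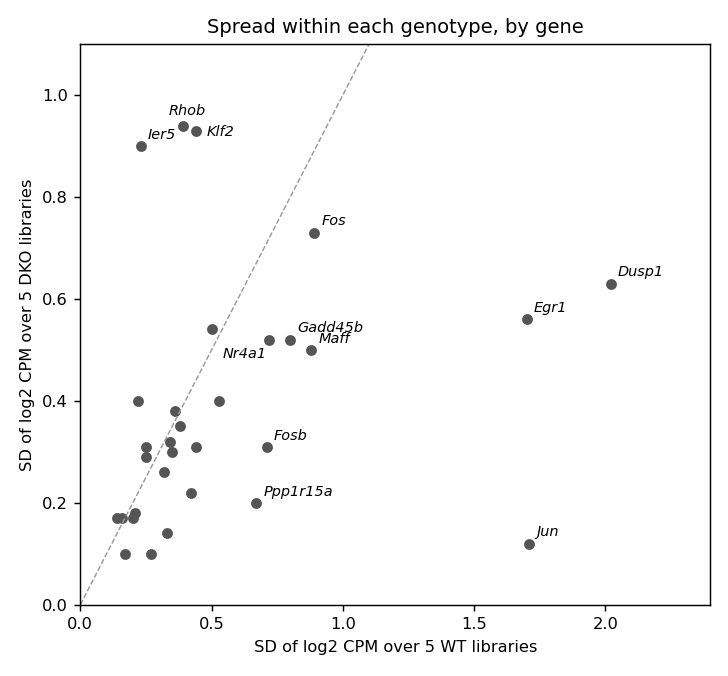
SD of log2 CPM over the 5 WT libraries (x axis) against that over the 5 DKO libraries (y axis), 1 point per tested gene, with a dashed line where both are equal and genes with an SD above 0.65 named. Dusp1, Egr1 and Jun lie far to the right, and Rhob, Klf2 and Ier5 lie above the line.

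Other genes of the same pathways were followed in 12 lists, also chosen with earlier results of these data known. The lists held 139 genes in the files, of which 121 were tested. Among them 12 rose and 5 fell, or 14%, against 6.19% of all genes, and the median log2 fold change was 0.13, against -0.01 over all genes. With upper-quartile factors, and likewise by library size alone, 8 rose and 6 fell. Of 12 other AP-1 and bZIP subunits, 4 rose, among them Batf2, which pairs with JUN proteins, and 1 fell. Batf2 rose from 1.31 ± 0.37 to 3.84 ± 0.813 CPM (mean ± SD of 5 libraries, here and below), by 1.55 on the log2 scale (SE 0.24, edgeR adjusted p = 0.00306). Mafg, a small MAF partner, fell by 0.49 on the log2 scale (SE 0.12, edgeR adjusted p = 0.0353). The corepressor of EGR proteins Nab2 rose from 9.98 ± 2.37 to 20.1 ± 2.89 CPM, by 1.01 on the log2 scale (SE 0.17, edgeR adjusted p = 0.00622), and every DKO library lay above every WT library. Among 6 other KLF genes, Klf11 rose from 2.49 ± 1.57 to 13.5 ± 1.96 CPM, by 2.44 on the log2 scale (SE 0.36, edgeR adjusted p = 0.00242). Of 5 other MAP kinase phosphatases 1 was called, Dusp3 (log2 fold change 0.81, SE 0.13, edgeR adjusted p = 0.00337). Id2, an inhibitor of helix-loop-helix factors, fell by 1.07 on the log2 scale (SE 0.18, edgeR adjusted p = 0.00474), as the single changed gene of 7 other early transcription factors.

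Among 11 genes of NF-kB and its feedback, Nfkb1 fell and Nfkb2 and Relb, the subunits of the alternative pathway, rose. Nfkb1 lay at 184 to 221 CPM in WT and 119 to 155 CPM in DKO libraries (log2 fold change -0.51, SE 0.1, edgeR adjusted p = 0.0116). Relb lay at 3.65 to 18.3 CPM and 20.8 to 38.4 CPM (log2 fold change 1.62, SE 0.41, edgeR adjusted p = 0.0393), and Nfkb2 at 18.5 to 24.7 and 26.1 to 32 CPM (log2 fold change 0.46, SE 0.11, edgeR adjusted p = 0.0323). Of 11 cytokine genes known from dissociated microglia, Ccl3, Il6 and Cxcl10 rose and none fell, and the genotypes overlapped for each. Their log2 fold changes were 0.91, 0.77 and 1.05 (edgeR adjusted p = 0.0352, 0.0437 and 0.0457). Il6 averaged 5.27 CPM in WT and 8.98 CPM in DKO libraries, and Cxcl10 3.61 and 7.51 CPM. The more abundant Ccl4 and Il1a did not pass the test (log2 fold changes 0.33 and -0.08, edgeR adjusted p = 0.323 and 0.757). The share called was 27.3% in this list and in the NF-kB list, against 6.19% of all genes, on few genes. With upper-quartile factors or by library size alone, Il6, Cxcl10 and Nfkb2 did not pass the threshold, and over all 16 other settings they missed it in 7, 6 and 8, with edgeR, DESeq2 or limma adjusted p up to 0.349, 0.375 and 0.355. Of 10 relatives in mRNA decay and growth arrest, Txnip (log2 fold change -0.63, edgeR adjusted p = 0.00768) and Sgk1 (log2 fold change -0.92, edgeR adjusted p = 0.0454) fell. Klf11, Batf2, Dusp3, Id2, Nab2, Txnip and Nfkb1 passed the threshold with any single library left out. Mafg, Sgk1, Nfkb2, Relb, Ccl3, Il6 and Cxcl10 did not pass it without WT 5, nor without DKO 1, with edgeR adjusted p up to 0.119 when 1 library was left out.

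None of the listed factors that switch on the early and chaperone genes passed the test with edgeR. Over all 13916 tested genes, 3244 had an unadjusted p under 0.05, which is the background for the counts below. Of 19 SRF and CREB factors and kinases, edgeR called 0, with 6 at an unadjusted p under 0.05, DESeq2 called 2, and limma called 0 with voom and with log2 TPM. The most highly expressed, the kinase Rps6ka1, had a log2 fold change of 0.52 (SE 0.17, edgeR adjusted p = 0.0901), and it passed the threshold without WT 3 (edgeR adjusted p = 0.00812). Of 16 heat shock factors and chaperones, edgeR and DESeq2 called 0, with 4 at an unadjusted p under 0.05, limma voom called 2 and limma on log2 TPM 1. Hsp90ab1, the constitutive HSP90, had a log2 fold change of 0.21 (SE 0.12, edgeR adjusted p = 0.309). Of 10 ER stress genes, edgeR, DESeq2 and limma voom called 0, with 3 at an unadjusted p under 0.05, limma on log2 TPM called 1, and the ER chaperone Hspa5 had a log2 fold change of -0.24 (SE 0.08, edgeR adjusted p = 0.11).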

How the data were processed

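Sorted mouse microglia were sequenced in 5 WT and 5 DKO libraries. Per the labels, the authors used cutadapt 2.6, FastQC 0.11.8 and STAR 2.5.3a with the build mm10. For the step from alignments to gene values, the tool was not given in the sources. The deposited files give estimated counts with no normalization, a TPM scaled by the authors' tool to a common total, and lengths. The kit does not mark strand.

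Estimated counts were rounded to whole numbers, filtered with filterByExpr (at least 10), given TMM factors and entered in the quasi-likelihood test of edgeR 4.0.16 (DKO over WT) in R 4.3.3, with Benjamini-Hochberg adjustment over all 13916 genes at 0.05. All 10 libraries were used. Standard errors were taken from the F statistic. Depth was 22483044 to 26109107 counts. Tested on simulated data with 50 genes per fold size, the test was checked to recover changed genes. DESeq2 1.42.0, limma 3.58.1 (voom, or log2 of TPM plus 1), other scalings, filters, an offset for effective length, terms for replicate number and for libraries 1 to 3 and 4 to 5, and libraries left out were alternatives, and a GC loess offset (span 0.4, degree 2) was added after the data were seen. The members and lists were chosen with earlier results of these data known. Values in every library are given for changed genes, for the 2 genes of smallest p and the gene of highest level per length in each role group, and for companion lists up to 3 changed genes, or the most expressed one. Coordinates are those of GRCm38 in GENCODE M21. The symbols Mrtfa, Mrtfb and Ccn1 of the lists were not matched, and a symbol with 2 records took the one with more reads. Some genes of the companion and marker lists, and 1 list, are counted in the totals but not reported here.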

Additional observations from a re-analysis of the deposited data

Results flagged for a closer look

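Among the 102 groups of 5 libraries formed by 51 genes and both genotypes, 8 held a library far from the other 4, by a gap of more than 0.71 of the range. That cutoff flags about 1 in 20 groups of normally distributed values, which CPM values need not be. The genes were chosen and no share over all genes was computed, so the rate due to chance is not known here. In WT libraries, Dusp1 was read at 94.8 CPM in WT 3 and at 3.08 to 19.1 CPM in the others, and Egr1 at 60.1 CPM in WT 3 and 2.82 to 19.4 CPM in the others. WT 3 was the low library for Ier2, with 17.6 CPM against 24.3 to 26.8 CPM. Cxcl10 was read at 6.56 CPM in WT 1 and at 2.33 to 3.35 CPM in the other WT libraries.

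In DKO libraries, DKO 2 was high for Ier5 (44.4 CPM against 8.84 to 16.1 CPM) and for Hsp90aa1 (157 CPM against 115 to 125 CPM), and low for Il6 (6.56 CPM against 9.23 to 10 CPM). DKO 3 was low for Atf3, with 26.7 CPM against 44 to 49.9 CPM. DKO 3 was also the library with the lowest value of its genotype for 13 of the 31 early and stress genes, against 26.4% of all genes, and DKO 2 the one with the highest for 17, against 21.8% of all genes. Among WT libraries, WT 1 was the highest for 13 of the 31, against 19.1% of all genes, and WT 3 the lowest for 12, against 20% of all genes.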

How the results depend on the processing

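The 3 changed genes, Rhob, Btg2 and Hspa8, passed the threshold with the same sign under 13 of 16 other settings, and not with the replicate block, in libraries 1 to 3 alone or without WT 1 and WT 5, where 0 of the early and stress genes were called. There were 5 called with limma voom, with log2 TPM recomputed without Gm23935 (both adding Egr1 and Dusp1), and 6 with the GC correction, chosen after seeing the data, which adds Junb, Klf4 and Socs3, the last reversed to -0.72. Leaving out 1 library gave 0 to 5 called, 7 to 22 in the companion lists and 402 to 1618 of all genes. The replicate block gave 10 companion genes and 547 of all genes, libraries 1 to 3 alone 5 and 298, and leaving out WT 1 and WT 5 gave 9 and 449. All genes numbered 1502 with DESeq2 and 1431 with a term for libraries 1 to 3 and 4 to 5. Calls over all genes were 604 higher and 258 lower, but 560 and 466 with upper-quartile factors (median -0.11), 519 and 447 by library size alone, 593 and 487 with log2 TPM, 856 and 575 with the term for libraries 1 to 3 and 4 to 5, and 563 and 635 with the GC correction. Libraries of equal number share no stated origin, and their deviations correlated at -0.21 to 0.17, above 0.1 in 1 of 5 pairs, so the block was not used. Of 494 values of single early and stress genes under other settings, 478 kept their side of the threshold, as did 289 of 310 with 1 library left out. Most of these genes were not called in the main fit, so these counts say little about the 3 calls. With 1 library left out, Btg2 lost its call in 5 of 10 fits, Rhob in 7 and Hspa8 in 7. In simulated counts of 13582 genes for this comparison, 16% of the changes of 1.5-fold and 62% of those of 2-fold were recovered, so smaller changes of single genes can be missed at this size. The changed genes were drawn at random among expressed genes. For genes that vary as widely as Dusp1 and Egr1, larger changes can be missed too.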
